A study of Mus musculus with 8 samples.

Results

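The 2 ligands of PD-1 and 4 further molecules through which antigen-presenting cells engage T cells were followed in immune cells that had entered grafts of a beta cell line. They are the genes Cd274 (PD-L1), Pdcd1lg2 (PD-L2), Cd80, Cd86, Cd40 and Icosl, chosen by name, 6 of the 32285 genes counted. NIT-1, a beta cell line from a NOD mouse, was grafted under the skin of immunodeficient NOD.scid mice, with unmodified (WT) cells on one flank and cells mutant for Renalase (Rnls mut) on the other. All mice were then given splenocytes of recently diabetic NOD mice intravenously, and grafts were taken 10 or 17 days after the transfer, 4 of each genotype at each day. Living CD45+ cells of each graft were sorted, marked with a hashtag antibody of their own and counted by droplet-based 3' single-cell RNA sequencing. The 4 grafts of a genotype and day were pooled in 1 library, so that a difference between genotypes at a day cannot be told apart from a difference between 2 libraries, and the difference between days rests on 2 libraries a day. The 2 genotypes were grafted into the same mice, so the 8 grafts of a day may come from 4 mice. Which grafts shared a mouse is not given. P-values of the day over both genotypes treat the grafts as separate samples and may be too small. Those within 1 genotype count a mouse once, but there each day is 1 library. A difference between days within 1 genotype thus cannot be told apart from a difference between 2 libraries. P-values between genotypes at a day leave out the pairing and may be too large where grafts of 1 mouse are alike. The scid host lacks most T and B cells of its own but keeps its myeloid and NK cells, and all groups had received the splenocytes, so no group went without the transfer. The mutation was in the grafted beta cells, which the sort removed (Ins1 and Iapp were at 0 in all 12 cell types, and the 4 beta cell markers, with Ins2 and Pcsk1, summed to at most 25.0 counts per 1000000 UMIs, or CPM, in any graft of a type), so no gene in these cells checks the genotype labels.

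PD-L1 and PD-L2 bind PD-1 on activated T cells and restrain them, and interferon gamma is the best known inducer of PD-L1 on myeloid cells. CD80 and CD86 are the ligands of CD28, which supports T cell activation, and of CTLA-4, which opposes it. CD80 can also bind PD-L1 on the same cell. CD40 is the receptor on antigen-presenting cells for CD40 ligand of helper T cells and drives their maturation, and ICOS ligand engages ICOS on activated T cells.

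The table held 22441 cells in 12 deposited cell types and 29 clusters, with 350 to 1967 cells per graft and a median of 3520 unique molecular identifiers (UMIs) per cell. Median depth per graft was 2882 to 3852 UMIs except in WT grafts at day 17, where it was 4463 to 7823, highest in graft 3. Of 22399 cell barcodes, 42 occurred in 2 or more libraries. UMIs were summed per graft and type and are given as counts per 1000000 UMIs of that type in that graft (CPM), from grafts with at least 10 cells of the type. All 8 markers of macrophages were highest in the cells labelled macrophages, 4 of 6 monocyte markers in monocytes and 6 of 8 dendritic cell (DC) markers in DCs. Among lymphocytes this held for 3 of 3 Treg markers, 3 of 4 NK cell markers and 2 of 5 markers of type 1 innate lymphoid cells (ILC-1). C1qa was at 2072 CPM in macrophages, 109 in monocytes and 11.8 in DCs, and Flt3 was at 102 in DCs. The 35 cells labelled B cells held the B cell gene Cd79a (469) but far more of the plasma cell genes Jchain (22170) and Mzb1 (4844). The cells labelled Stem-Progenitor held Cd3e (473), Gzma (6517) and the proliferation gene Top2a (922), which are genes of cycling lymphocytes, and are called here by their label only.

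Cd274 (ENSMUSG00000016496, chr19:29367455-29388095 of GRCm38, plus strand) and Pdcd1lg2 (ENSMUSG00000016498, chr19:29410919-29471161, plus strand) are neighbours, 22824 bases apart. Cd80 (ENSMUSG00000075122, chr16:38455561-38496335, plus strand) and Cd86 (ENSMUSG00000022901, chr16:36603869-36666081, minus strand) share chromosome 16, Cd40 (ENSMUSG00000017652) lies at chr2:165055627-165072948 on the plus strand and Icosl (ENSMUSG00000000732) at chr10:78069302-78083913 on the plus strand. An antisense gene on the minus strand, A930007I19Rik, overlaps Pdcd1lg2 over 6412 bases and was itself counted, at 59.2 CPM in macrophages, 25.1 in NK cells and 10.8 in DCs. Cd274 is overlapped over 11055 bases by the antisense gene AC119228.1 on the minus strand, which was not among the genes counted. Whether the counting used strand is not given in the sources used here, so antisense reads could be counted for either ligand. The promoters of the 2 PD-1 ligands are shown because both fell between days in macrophages and DCs, as did most interferon gamma induced genes followed here. They run from 250 bases before the start site to 50 after it, are taken from RefSeq (GRCm38.p6, plus strand) and cover chr19:29367188-29367487 for Cd274 and chr19:29410669-29410968 for Pdcd1lg2. Capitals mark a match to the core of an interferon-stimulated response element, searched as GAAANNGAA on both strands.
Cd274: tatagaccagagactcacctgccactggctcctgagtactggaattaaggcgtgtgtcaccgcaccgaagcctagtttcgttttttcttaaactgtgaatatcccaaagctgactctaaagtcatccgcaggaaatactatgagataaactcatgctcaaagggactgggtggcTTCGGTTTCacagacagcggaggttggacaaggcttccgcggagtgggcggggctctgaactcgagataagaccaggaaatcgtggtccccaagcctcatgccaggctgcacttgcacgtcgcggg
Pdcd1lg2: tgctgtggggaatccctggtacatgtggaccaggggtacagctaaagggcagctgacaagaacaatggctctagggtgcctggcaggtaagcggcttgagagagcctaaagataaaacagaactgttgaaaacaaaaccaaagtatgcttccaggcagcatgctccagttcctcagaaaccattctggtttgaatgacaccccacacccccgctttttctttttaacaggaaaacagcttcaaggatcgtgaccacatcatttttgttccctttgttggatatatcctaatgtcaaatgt
The only match lay in Cd274, on the minus strand, with its first base 76 bases before the start site, and 8.56% of the 32851 promoters of this length held the motif. The gamma-activated site, searched as TTCNNNGAA on both strands, matched in none of the 4 promoters found (Cd274, Pdcd1lg2, Cd80 and Icosl) against 8.30% of all. A match is a run of letters and not a measured binding site.

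Cd274 was highest in granulocytes at both days, with no graft overlapping the next type, and second in monocytes. The 7 granulocyte samples of day 10 held 1765 at the lowest, 3603 at the median and 5497 at the highest, and the 5 of day 17 held 1056 at the lowest, 2852 at the median and 3161 at the highest. At day 10 monocytes (624 ± 132, SD, n = 8), macrophages (576 ± 75.3, SD, n = 8) and DCs (552 ± 166, SD, n = 8) overlapped each other, followed by Tregs (436 ± 84.7, SD, n = 8). NK cells (245 ± 50.1, SD, n = 8), CD8 T cells (219.8 ± 42.8, SD, n = 8) and CD4 T cells (183 ± 18.4, SD, n = 8) were lower, and each overlapped its neighbour. At day 17 monocytes (557 ± 129, SD, n = 7) were followed by Tregs (321 ± 73.9, SD, n = 6), whose mean was now above those of macrophages (277 ± 87.7, SD, n = 8) and DCs (229 ± 125, SD, n = 8), while CD4 T cells were at 215 ± 49.7 (SD, n = 8). The levels are a description, since the genes were chosen with earlier results of these data known, and granulocytes were shallow, with a median of 1277 UMIs per cell at day 10 and 1536 at day 17.

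Pdcd1lg2 followed another order. The cells labelled ILC-1 had the highest mean at both days, 244 ± 118 (SD, n = 4) and then 252 ± 90.0 (SD, n = 4) CPM, ahead of DCs (197 ± 54.5, SD, n = 8), NK cells (191 ± 38.6, SD, n = 8) and macrophages (178 ± 40.2, SD, n = 8) at day 10. At day 17 NK cells (162 ± 39.2, SD, n = 8) and CD4 T cells (104 ± 22.8, SD, n = 8) stood above macrophages, DCs and monocytes, whose means were 59.7, 51.3 and 40.8. All neighbours in this order overlapped.

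The costimulatory genes were mostly myeloid. Cd86 was highest in DCs (385 ± 65.2, SD, n = 8 at day 10), macrophages (339 ± 38.8, SD, n = 8) and monocytes (266 ± 51.4, SD, n = 8), with no overlap between monocytes and granulocytes, the next type. Among lymphocytes its highest mean was in CD8 T cells, 37.3 ± 4.61 (SD, n = 8), which did not overlap CD4 T cells (16.1 ± 4.49, SD, n = 8). Cd40 was highest in DCs at both days, and its mean was at most 3.09 in any lymphocyte type. In CD8 T cells Cd40 was counted in 14 UMIs at day 10 and 0 at day 17. Cd80 was highest in granulocytes (289.9 ± 152, SD, n = 7) and DCs (173 ± 38.7, SD, n = 8) and was also found in Tregs (117 ± 38.1, SD, n = 8), but in NK cells its mean was 6.30. Icosl was low everywhere, with its highest means in DCs (20.5 ± 9.23, SD, n = 8) and granulocytes (18.5 ± 16.8, SD, n = 7).

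**Figure D1:**
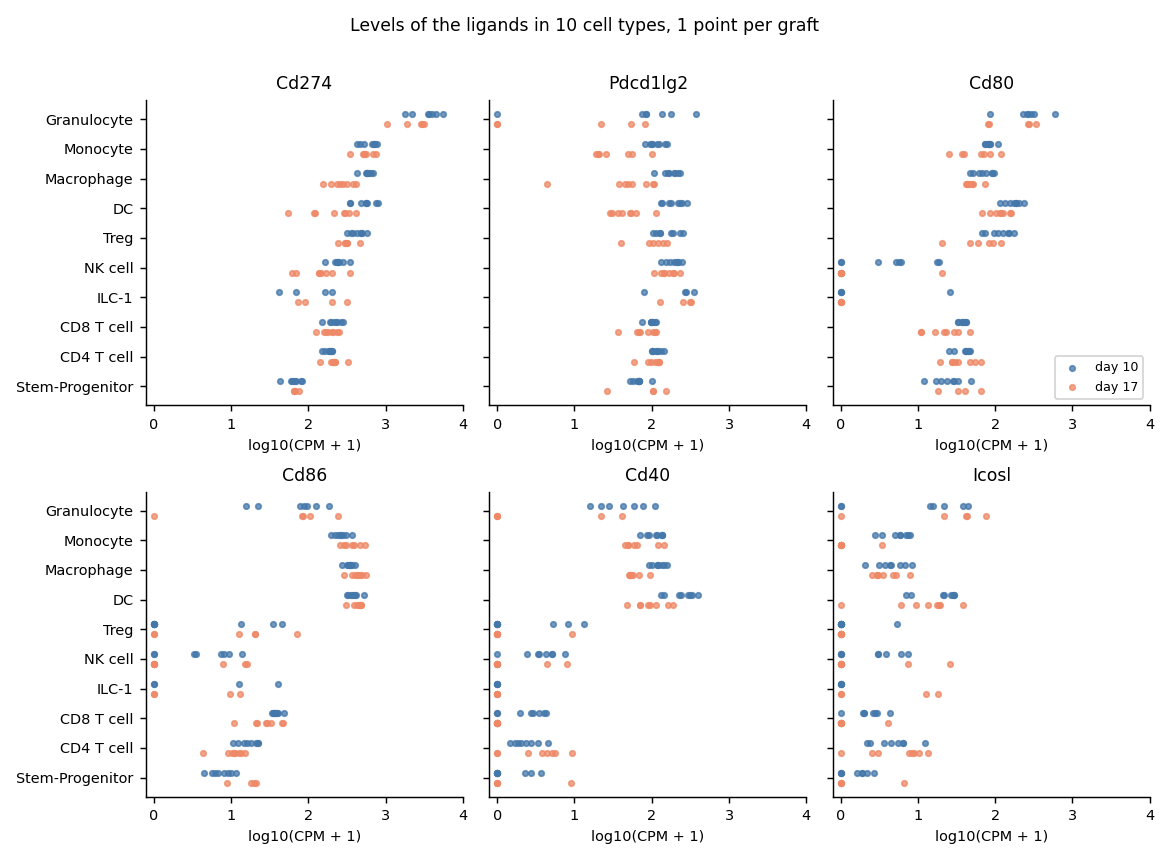
Level of each of the 6 genes as log10(CPM + 1) in 10 cell types, with 1 point per graft, coloured by day. Granulocytes stand apart for Cd274, the 3 antigen-presenting types and granulocytes for Cd86 and Cd40, and Pdcd1lg2 reaches lymphocytes as well as myeloid cells.

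Free RNA in droplets gives UMIs of a gene in cells that do not make it. The macrophage genes C1qa and Apoe gauge this in CD4 T cells, where they were at 0.773% and 0.640% of their macrophage level at day 10, and C1qa was at 2.92% at day 17. Cd274 (32.2%), Pdcd1lg2 (68.6%) and Cd80 (58.8%) in CD4 T cells were far above that share at day 10. Cd86 in CD4 T cells was at 4.55% at day 10, above the background share, and at 2.75% at day 17, close to it. Cd40 in CD4 T cells was at 1.10% and 4.27%. In NK cells Cd86 was at 1.51% of its macrophage level at day 10. Macrophage genes in lymphocytes also stood at different levels in the 2 genotypes. The summed macrophage markers in CD4 T cells were 49.0 to 60.3 CPM in WT and 18.9 to 35.3 in Rnls mut grafts at day 10, and 109 to 130.1 and 434 to 507 at day 17, and in NK cells of day 17 they were 86.8 to 167 and 373 to 548. The genotypes did not overlap in any of these 3 sets, and the part of these genes in the values of lymphocytes was not tested. The cells labelled B cells came from 12 grafts with at most 8 cells each, 20 of the 35 had high doublet scores, and they were only pooled. They held 72 UMIs of Cd274, or 228 CPM (exact Poisson 95% interval 178 to 287), 48 of Cd86, or 152 CPM (112 to 202), 16 of Cd80, 4 of Pdcd1lg2, 3 of Cd40 and 0 of Icosl, for which a limit of 3 UMIs is 9.50 CPM. The 13 mast cells held at most 3 UMIs of any of the 6 genes. These intervals and limits cover counting error only.

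The first comparison asked how the levels moved between days 10 and 17. By the fold of the edgeR fit, Cd274 in macrophages fell to 0.436 times its day 10 level and Pdcd1lg2 to 0.316 times. Cd40 there fell to 0.432 times and Cd80 to 0.614 times, while Cd86 did not pass the test. In DCs the same genes fell in the fit to 0.451, 0.289, 0.391 and 0.694 times. In monocytes Pdcd1lg2 fell to 0.362 and Cd40 to 0.596 times. Taken from mean CPM, the ratios for Cd274, Pdcd1lg2, Cd40 and Cd80 were 0.4815, 0.3353, 0.4876 and 0.6723 in macrophages. In DCs these ratios were 0.4146, 0.26, 0.4004 and 0.6693. With edgeR's quasi-likelihood test, 4 of the 5 members tested in macrophages fell between days at a Benjamini-Hochberg adjusted p under 0.05, where 50.9% of all genes tested were called in either direction, so that a call as such was common. In DCs 4 of 6 fell (27.1% of all genes called), in monocytes 2 of 5 (14.4%), and no member rose in any type. Icosl passed the filter on low counts in DCs only. In bulk sums of this kind, fewer cells with a transcript and fewer transcripts per cell cannot be told apart.

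Cd274 in macrophages was at 568, 600.4, 551 and 421 CPM in the 4 WT grafts of day 10 and at 676, 571, 576 and 642 in the 4 Rnls mut grafts. At day 17 it was at 284, 155, 409 and 252 in WT and at 381, 232, 311 and 194 in Rnls mut grafts. Every graft of day 17 lay below every graft of day 10. The mean fell from 576 ± 75.3 (SD, n = 8) to 277 ± 87.7 (SD, n = 8), with an exact permutation p of 0.000408 for the day within genotype, the smallest that the 4900 possible assignments of grafts can give. Within WT and within Rnls mut grafts alone the exact permutation p was 0.0286 each, the smallest that 4 against 4 can give. The log2 difference was -1.20 ± 0.16 (SE; adjusted p = 1.02e-05), and it was -1.12 in WT (adjusted p = 0.00174) and -1.27 in Rnls mut grafts (0.000279). The summed level of the 8 macrophage markers moved the other way, from 4004 to 8835 in WT and 2578 to 9007 in Rnls mut grafts at day 10 to 6468 to 18860 and 8002 to 21200 at day 17, and its part in the result was not tested.

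In DCs Cd274 was at 559.5, 479, 563 and 348 in WT and 794, 572, 341 and 758 in Rnls mut grafts at day 10, and at 332, 118, 418 and 120.4 in WT and 294, 211, 285 and 53.0 in Rnls mut grafts at day 17. The days overlapped here, since WT graft 3 of day 17 exceeded WT graft 4 and Rnls mut graft 3 of day 10. The mean fell from 552 ± 166 (SD, n = 8) to 229 ± 125 (SD, n = 8) (exact permutation p = 0.00163, within WT 0.0571 and within Rnls mut 0.0286), a log2 difference of -1.15 ± 0.27 (edgeR, adjusted p = 0.00349). In monocytes Cd274 did not pass the test, at 657, 530.1, 709 and 428 in WT and 706, 731, 462 and 769 in Rnls mut grafts at day 10 against 743, 532 and 518 in WT and 553, 350.0, 693 and 511 in Rnls mut grafts at day 17. The monocyte log2 difference was -0.30 ± 0.17 (adjusted p = 0.226), and whether it differs from that of macrophages was not tested. In DCs the summed monocyte markers ranged from 904 to 1290 in WT and 809 to 1600 in Rnls mut grafts at day 10 and from 440.0 to 1162 and 567 to 840.5 at day 17, and the summed NK cell markers, at most 15.2 at day 10, reached 449.8 in 1 WT graft of day 17. Their part in the DC results was not tested. Monocytes were few at day 17, 250 cells against 2095 at day 10, and WT graft 2 had too few to be used.

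Pdcd1lg2, the second ligand of PD-1, fell in all 3 types. In macrophages it was at 167, 201, 149 and 164 in WT and 193, 105, 230.4 and 215 in Rnls mut grafts at day 10, and at 37.0, 3.47, 82.2 and 104 in WT and 104, 48.5, 55.2 and 43.5 in Rnls mut grafts at day 17, with no overlap between the days. The log2 difference was -1.66 ± 0.31 (adjusted p = 0.000299). In DCs the grafts held 221, 134, 164 and 131 in WT and 245, 229, 175 and 280.5 in Rnls mut grafts at day 10 and 35.9, 27.9, 112 and 50.7 in WT and 62.1, 29.5, 39.6 and 53.0 in Rnls mut grafts at day 17, again without overlap, and the log2 difference was -1.79 ± 0.24 (adjusted p = 2.81e-05). Both separations gave the smallest exact permutation p, 0.000408 over all grafts and 0.0286 within each genotype. In monocytes it fell from 115 ± 26.9 (SD, n = 8) to 40.8 ± 30.4 (SD, n = 7), a log2 difference of -1.47 ± 0.25 (adjusted p = 0.000842). WT graft 3 of day 17, at 101, was the only monocyte sample of that day within the range of day 10.

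**Figure D2:**
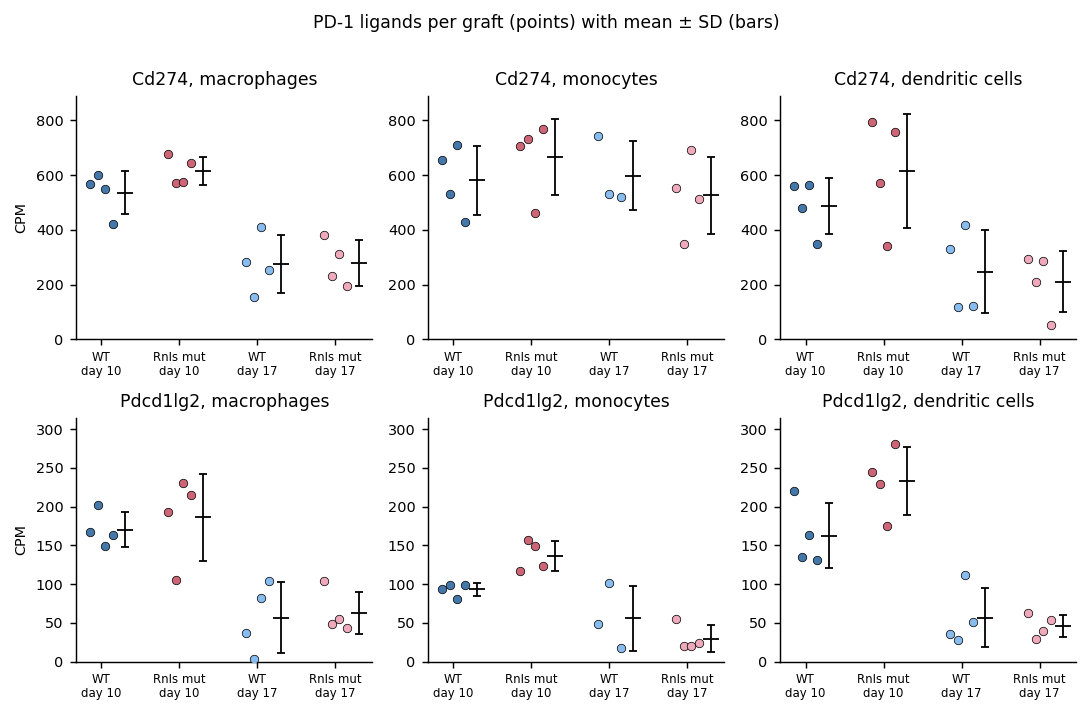
Cd274 and Pdcd1lg2 in CPM in macrophages, monocytes and DCs, 1 point per graft, by genotype and day, with the mean and SD of each group. Day 17 lies below day 10 without overlap for both genes in macrophages and for Pdcd1lg2 in DCs, while Cd274 in monocytes stays between 350.0 and 769 at both days.

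In lymphocytes few members were called. The calls were 1 of 4 members in CD4 T cells (36.6% of all genes called), 1 of 4 in CD8 T cells (21.4%), 1 of 3 in Tregs (15.7%), 0 of 2 in NK cells (12.9%) and 0 of 2 in ILC-1 (15.5%). At an unadjusted p under 0.05 (edgeR) there were 1 in CD4 T cells, 3 in CD8 T cells, 3 in Tregs, 1 in NK cells and 0 in ILC-1. Of all genes, 2147 of 6379 in CD8 T cells and 735 of 2331 in Tregs were under that limit. In Tregs Pdcd1lg2 (log2 difference -0.64, edgeR adjusted p = 0.0977) and Cd80 (-0.72, 0.108) were not called. Cd274 fell in Tregs, from 436 ± 84.7 (SD, n = 8) to 321 ± 73.9 (SD, n = 6) (log2 difference -0.53 ± 0.17, edgeR adjusted p = 0.0388), but the call was lost under DESeq2 (adjusted p = 0.0894), with the hashtag number as a block (0.0510), with scaling by total UMIs (0.0648) and without any 1 of 9 grafts (0.0506 to 0.137), which were WT grafts 1 and 2 of day 10, WT grafts 3 and 4 of day 17, Rnls mut grafts 1 and 4 of day 10 and Rnls mut grafts 1, 2 and 3 of day 17. In NK cells Cd274 went from 245 ± 50.1 (SD, n = 8) to 156 ± 88.1 (SD, n = 8) (log2 difference -0.69 ± 0.24, adjusted p = 0.0584). Without WT graft 3 of day 17 the NK value was -0.98 (adjusted p = 0.00172), without Rnls mut graft 1 of day 10 -0.77 (0.0480), and without that same graft Cd274 (-0.38, 0.0318) and Pdcd1lg2 (-0.42, 0.0427) passed in CD8 T cells. In CD4 T cells Cd274 differed by 0.09 ± 0.11 between days (adjusted p = 0.57).

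Of the B7 ligands, Cd80 fell modestly and Cd86 did not fall in antigen-presenting cells. Cd80 in macrophages was at 50.6, 89.6, 61.6 and 76.1 in WT and 67.4, 46.7, 95.4 and 88.8 in Rnls mut grafts at day 10, and at 42.2, 42.8, 48.7 and 71.8 in WT and 50.9, 43.7, 41.4 and 46.0 in Rnls mut grafts at day 17. The days overlapped, and the log2 difference was -0.70 ± 0.16 (edgeR, adjusted p = 0.00167). In DCs Cd80 went from 173 ± 38.7 (SD, n = 8) to 116 ± 32.0 (SD, n = 8), a log2 difference of -0.53 ± 0.17 (adjusted p = 0.0255), and the call was lost without any 1 of 7 grafts (adjusted p 0.0517 to 0.0794), namely WT grafts 1 and 3 of day 10, WT grafts 3 and 4 of day 17, Rnls mut grafts 1 and 4 of day 10 and Rnls mut graft 2 of day 17, and with at least 20 cells per graft (0.0692). In monocytes Cd80 did not pass (log2 difference -0.40 ± 0.21, adjusted p = 0.205).

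Cd86 in macrophages was at 343, 322, 316 and 402 in WT and 369, 269.7, 347 and 344 in Rnls mut grafts at day 10, and at 458, 558, 290.5 and 499 in WT and 426, 405, 361 and 435 in Rnls mut grafts at day 17. Most grafts of day 17 were higher, but WT graft 3 was below all of the WT grafts of day 10. The edgeR log2 difference was 0.19 ± 0.12 (adjusted p = 0.205), while the exact permutation test on CPM gave p = 0.0163 for a rise of the mean from 339 ± 38.8 (SD, n = 8) to 429 ± 81.7 (SD, n = 8). The fit scaled by total UMIs instead of TMM factors gave 0.34 (adjusted p = 0.0209), and the fit without WT graft 3 of day 17 gave 0.27 (0.0202). That scaling moved the median log2 difference of all genes in macrophages from 0.02 to 0.17. In DCs the Cd86 difference was 0.19 ± 0.12 (adjusted p = 0.276) and in monocytes 0.32 ± 0.17 (0.203).

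In T cells the B7 ligands were low, and each call there was lost without single grafts. Cd86 in CD4 T cells went from 16.1 ± 4.49 (SD, n = 8) to 9.87 ± 3.20 (SD, n = 8) (log2 difference -0.69 ± 0.24, edgeR adjusted p = 0.0284), and the call was lost without WT graft 2 (0.0515) or Rnls mut graft 2 (0.0606) of day 10 or Rnls mut graft 1 of day 17 (0.0810), without high doublet scores (0.0540) and with scaling by total UMIs (0.0745). Cd80 in CD8 T cells went from 36.8 ± 3.62 (SD, n = 8) to 23.0 ± 12.1 (SD, n = 8) (-0.69 ± 0.23, adjusted p = 0.032) and lost the call without WT graft 2 (0.0885) or Rnls mut graft 3 (0.0731) of day 17, under DESeq2 (0.0569) and with scaling by total UMIs (0.0725). Without WT graft 3 of day 17, Cd80 passed in CD4 T cells (-0.58, 0.0179), and without WT graft 1 of day 17, Cd86 passed in CD8 T cells (-0.82, 0.0287).

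Cd40 fell in macrophages and DCs, and in monocytes by the edgeR test only. In DCs, where it was highest, the grafts held 399, 224, 237 and 142 in WT and 307, 291, 131 and 331 in Rnls mut at day 10, and 89.7, 161, 69.6 and 69.7 in WT and 93.1, 46.3, 111 and 186 in Rnls mut grafts at day 17. Rnls mut graft 4 and WT graft 2 of day 17 reached into the range of day 10. The log2 difference was -1.36 ± 0.27 (adjusted p = 0.000949, exact permutation p = 0.00204, within each genotype 0.0571). In macrophages Cd40 was at 121, 134, 118 and 91.6 in WT and 154, 118, 98.9 and 143 in Rnls mut grafts at day 10 and at 94.2, 68.2, 50.5 and 53.5 in WT and 50.3, 56.8, 51.6 and 52.0 in Rnls mut grafts at day 17, where WT graft 1 of day 17 alone overlapped day 10. Its log2 difference, -1.21 ± 0.13, had the smallest adjusted p of the members, 1.25e-06. In monocytes the exact permutation test gave p = 0.0935 (within WT 0.857, within Rnls mut 0.0286). The mean of day 17 there was 0.947 times that of day 10 in WT and 0.493 times in Rnls mut grafts. The edgeR log2 difference in monocytes was -0.75 ± 0.25 (adjusted p = 0.0462). That call was lost without any 1 of 10 of the 15 grafts (0.0622 to 0.104), which were WT grafts 1, 2 and 3 and Rnls mut grafts 1 and 4 of day 10, WT graft 3 and all 4 Rnls mut grafts of day 17, and also under DESeq2 (0.0672), with at least 20 cells per graft (0.0727) and with scaling by total UMIs (0.128).

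Icosl in DCs was at 27.9, 20.6, 28.6 and 28.1 in WT and 26.0, 7.09, 6.03 and 19.8 in Rnls mut grafts at day 10, and at 17.9, 37.2, 4.97 and 12.7 in WT and 16.7, 8.43, 18.5 and 0 in Rnls mut grafts at day 17. The days overlapped, and the log2 difference between days was -0.33 ± 0.40 (adjusted p = 0.582). Over all grafts there were 2095 monocytes at day 10 and 250 at day 17, so fewer UMIs could be counted at day 17. In monocytes 50 UMIs were counted at day 10 and 1 at day 17, or 4.67 ± 1.82 (SD, n = 8) and 0.344 ± 0.909 (SD, n = 7) CPM. The exact permutation test of that difference gave p = 0.000408, and edgeR with Icosl kept against the filter on low counts gave an adjusted p of 0.0987. In macrophages Icosl was at 3.85 ± 2.04 (SD, n = 8) and 3.13 ± 1.80 (SD, n = 8).

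**Figure D3:**
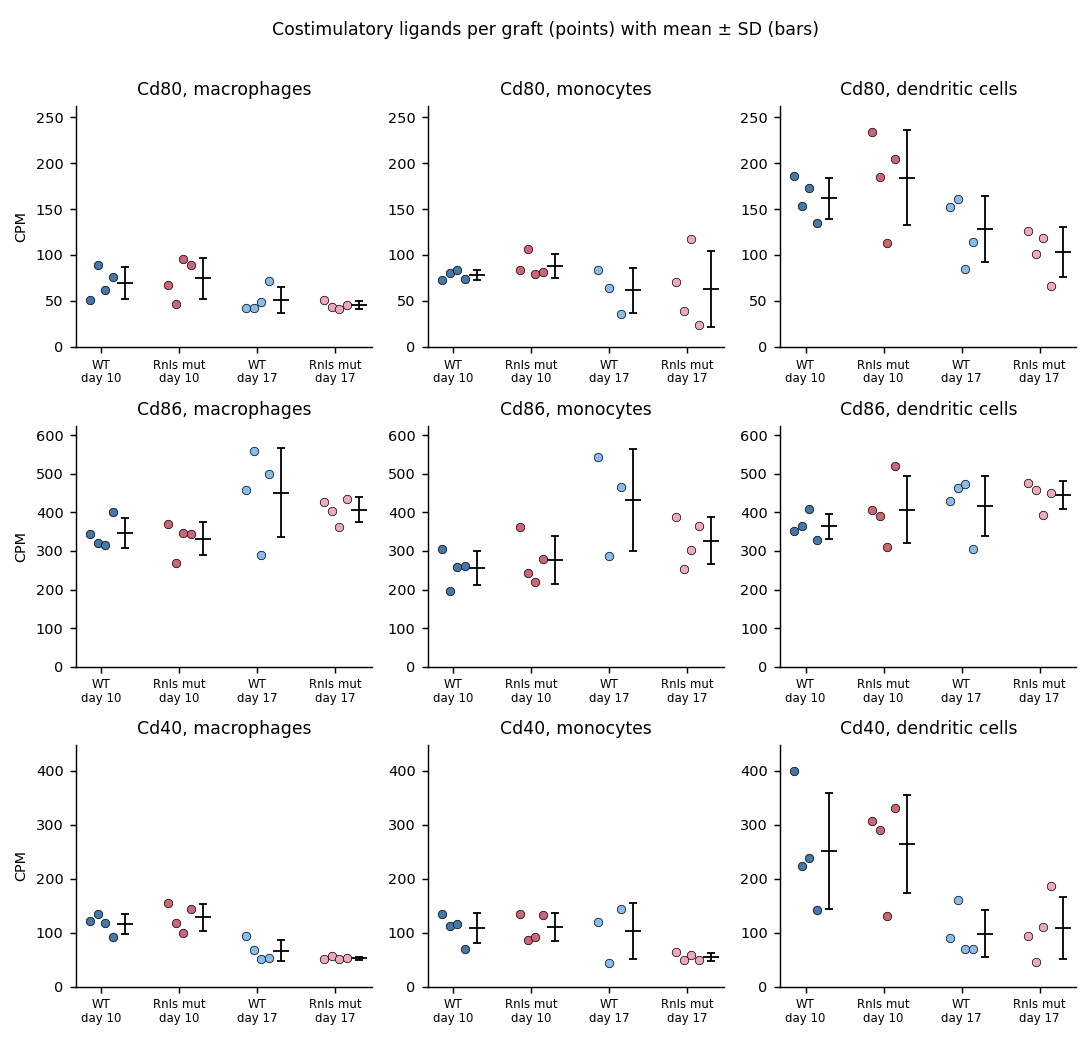
Cd80, Cd86 and Cd40 in CPM in macrophages, monocytes and DCs, 1 point per graft, by genotype and day, with the mean and SD of each group. Cd40 is lower at day 17 in macrophages and DCs, and Cd86 is not.

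**Figure D4:**
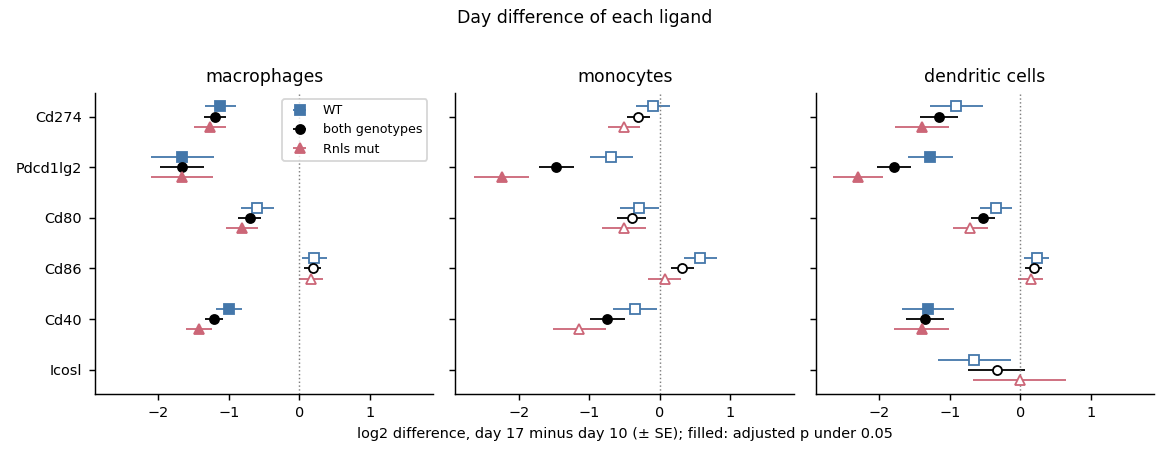
Log2 difference between days (day 17 minus day 10, ± SE, edgeR) of each gene in the 3 antigen-presenting types, for both genotypes together and for each alone, with filled symbols for an adjusted p under 0.05. The values of Cd274, Pdcd1lg2, Cd80 and Cd40 lie below 0 in all 3 types and both genotypes, and those of Cd86 above 0.

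Within genotypes, 3 of the 5 members passed in macrophages of WT grafts (25.1% of all genes called) and 4 in those of Rnls mut grafts (42%). In DCs 2 of 6 passed in WT (10.2%) and 3 in Rnls mut (14.6%). In monocytes 0 of 5 passed in WT (3.84%, with 2 at an unadjusted p under 0.05 by edgeR) and 1 in Rnls mut (3.19%). Pdcd1lg2 in DCs had a log2 difference of -1.28 ± 0.32 in WT and -2.31 ± 0.36 in Rnls mut grafts, and in monocytes -0.69 ± 0.31 and -2.25 ± 0.39. The test of the difference between genotypes in the change, the interaction, called neither (adjusted p = 0.813 and 0.952).

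The deposited clusters split each type further, and their shares of the pooled cells, given without a test, differed between days. The Fscn1, Ccr7 and Ccl22 cluster of DCs (cluster 21), whose leading genes are those of mature migratory DCs, made up 25.4% of DCs at day 10 and 10.8% at day 17, or 210 of 825 and 30 of 279 cells. At day 10 it held 1172 ± 152 (SD, n = 8) CPM of Cd274, against 518 ± 112 (SD, n = 8) in the Cd209a, Mgl2 and Ifitm1 cluster (17), 278 ± 71.9 (SD, n = 6) in the Xcr1, Sept3 and Itgae cluster (19) and 36.6 ± 37.5 (SD, n = 4) in the Ly6d, Siglech and Ccr9 cluster (25). Cluster 21 was also the highest DC cluster at day 10 for Pdcd1lg2 (331 ± 82.3, SD, n = 8), Cd40 (655 ± 202, SD, n = 8), Cd80 (305 ± 52.1, SD, n = 8) and Cd86 (652 ± 108, SD, n = 8), and cluster 25 was the lowest for each. Cluster 19 made up 20.9% of DCs at day 10 and 60.6% at day 17, and cluster 17 41.8% and 14.7%. Among macrophages the Inhba, Gm15056 and Nos2 cluster (4) went from 61.7% to 6.03%, and the Apoe, Cxcl13 and Ccl8 cluster (2) from 3.38% to 35.2%. Clusters were made from all genes including these, so differences between clusters are a description.

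Within a cluster the days could be compared where at least 2 grafts of each group held 10 cells, which was so for 4 clusters. Cd274 fell within the Gab1, Abca1 and Gm42418 macrophages (5), from 758 ± 257 (SD, n = 8) to 294 ± 125 (SD, n = 8) without overlap (exact permutation p = 0.000408), and was 706 ± 87.6 (SD, n = 8) and 542 ± 106 (SD, n = 5) within cluster 4 (p = 0.0381, exact). In the Xcr1 DCs it was 278 ± 71.9 (SD, n = 6) and 193 ± 143 (SD, n = 6) (p = 0.351, exact), and in the Chil3, Vcan and Slfn1 monocytes (1) 577 ± 121 (SD, n = 8) and 404 ± 139.8 (SD, n = 5) (p = 0.0571, exact). Pdcd1lg2 fell in 3 of these clusters, with exact p of 0.000408 in macrophage cluster 5, 0.00191 in cluster 4 and 0.00381 in monocyte cluster 1, and had an exact p of 0.0257 in the Xcr1 DCs, where the level was 116 ± 48.2 (SD, n = 6) and 33.5 ± 42.7 (SD, n = 6). Cd86 rose within the Xcr1 DCs, from 290.1 ± 65.1 (SD, n = 6) to 464 ± 46.1 (SD, n = 6) without overlap (p = 0.00286, exact), and did not pass in macrophage cluster 5, at 484 ± 115 (SD, n = 8) and 486 ± 145 (SD, n = 8) (p = 0.97, exact). In the same macrophage cluster Cd80 (p = 0.00408, exact) and Cd40 (p = 0.00367, exact) fell. Adjusted over the 24 comparisons of this kind (6 genes in 4 clusters), 7 were under 0.05, which were Cd274, Pdcd1lg2, Cd80 and Cd40 in macrophage cluster 5, Pdcd1lg2 in macrophage cluster 4 and monocyte cluster 1, and Cd86 in the Xcr1 DCs, with adjusted p of 0.00490 for Cd274 and Pdcd1lg2 in cluster 5 and 0.0140 for the rest. Only the members were compared within clusters, so no share of all genes called stands beside this count. The Adgre4, Ace and Cd300e monocytes (14), which had too few grafts for a test, held 39.7 ± 16.9 (SD, n = 7) of Pdcd1lg2 at day 10 and 37.8 ± 14.9 (SD, n = 5) at day 17, below cluster 1 at day 10 (127 ± 30.2, SD, n = 8), and their share of monocytes went from 19.3% to 56.4%.

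With cluster 21 left out of the DCs, an alternative chosen after seeing the data, the day difference of Cd274 was -0.59 (edgeR, adjusted p = 0.102) and that of Cd80 -0.22 (0.406), both no longer called. Pdcd1lg2 (-1.67, adjusted p = 0.000184) and Cd40 (-1.12, 0.00479) were still called, and Cd86 was now called in the other direction (0.58, 0.00100). The call of Cd274 in DCs was lost in this alternative only. That of Cd80 was also lost without single grafts and with at least 20 cells per graft. At day 10 cluster 21 was the highest DC cluster for all of these genes, and leaving out another cluster was not tested. The share of all genes called without cluster 21 is not given here.

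**Figure D5:**
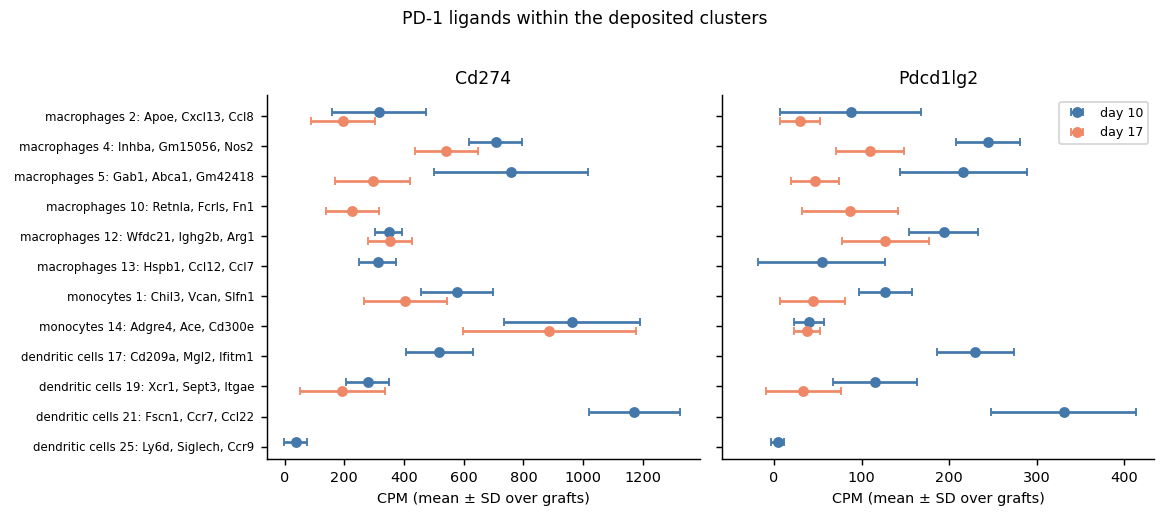
Cd274 and Pdcd1lg2 in CPM (mean ± SD over grafts) in each deposited cluster of macrophages, monocytes and DCs, by day, for clusters with at least 2 usable grafts at that day. The Fscn1 cluster of DCs has the highest level of both genes at day 10, and within macrophage cluster 5 both are lower at day 17.

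The share of cells with at least 1 UMI was taken after thinning each cell to 1000 UMIs, because depth differed between types and days. Cd274 was found in 41.9% ± 4.61 (SD, n = 8) of macrophages per graft at day 10 and 19.9% ± 5.74 (SD, n = 8) at day 17, in 37.2% ± 11.1 (SD, n = 8) and 19.6% ± 12.3 (SD, n = 8) of DCs, and in 44.3% ± 6.06 (SD, n = 8) and 34.0% ± 10.6 (SD, n = 7) of monocytes. In granulocytes the shares were 82.7% and 64.5%, and in CD4 T cells 17.7% and 19.4%. Without thinning the shares in macrophages were 85.8% and 53.5%, at median depths of 5712 and 4230 UMIs. Cd40 was found in 20.4% ± 6.62 (SD, n = 8) and 6.38% ± 3.98 (SD, n = 8) of DCs at the 2 days, against 0.190% and 0.147% of CD4 T cells, and Pdcd1lg2 in 17.9% ± 7.57 (SD, n = 8) and 5.12% ± 3.82 (SD, n = 8) of DCs.

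Cd80 and Cd274 were found together in part of the DCs. At day 10, after thinning, 55 of the 113 DCs with a Cd80 UMI also had a Cd274 UMI (48.7%), against 34.3% of the DCs without one. At day 17 it was 11 of 22 (50.0%) against 19.5%. In macrophages the shares were 44.1% and 41.5% at day 10 and 28.8% and 22.2% at day 17, and in monocytes 45.0% and 43.7% at day 10. These are counts over cells pooled from all grafts and clusters of a day, given without a test. At day 10 both genes were highest in the Fscn1, Ccr7 and Ccl22 cluster of DCs and lowest in the Ly6d, Siglech and Ccr9 cluster. High doublet scores were found in 11.5% of DCs. The part of clusters and doublets in these shares was not tested.

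The second comparison was the one the study was made for, that of Rnls mut with WT grafts. Over the 8 types fitted, 31 values of members were tested at each day, and 0 were called by edgeR at day 10 or at day 17, with 2 and 1 at an unadjusted p under 0.05. These were Pdcd1lg2 in monocytes at both days and Cd274 in ILC-1 at day 10, where 2 grafts per group gave a log2 difference of -1.52 ± 0.70 (adjusted p = 0.728). The lowest adjusted p was 0.728 at day 10 and 0.641 at day 17. DESeq2 also called 0 members at either day. Of all genes, 0.0322% were called in macrophages, 0 in monocytes and 0.0175% in DCs at day 10, and 0, 0 and 0.0175% at day 17, so that few genes of any kind were called between the genotypes. Cd274 had a log2 difference (Rnls mut minus WT) of 0.18 ± 0.22 (SE) in macrophages, 0.18 ± 0.21 in monocytes and 0.30 ± 0.36 in DCs at day 10, and of 0.03 ± 0.22, -0.23 ± 0.26 and -0.18 ± 0.39 at day 17. The means were higher in Rnls mut grafts in all 3 types at day 10, 616 against 535 in macrophages, 667 against 581 in monocytes and 616 against 487 in DCs, but the grafts overlapped in each (exact permutation p = 0.143, 0.343 and 0.257).

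In antigen-presenting cells the genotypes did not overlap for Pdcd1lg2 in monocytes at day 10. The grafts held 94.1, 98.3, 81.1 and 99.3 in WT and 117, 156, 149 and 123 in Rnls mut, with an exact permutation p of 0.0286, the smallest that 4 against 4 grafts can give, before any adjustment for the number of genes and types compared. The edgeR log2 difference was 0.52 ± 0.21 with an unadjusted p of 0.0213 and an adjusted p of 1. At day 17 the direction was the opposite, 48.1, 101 and 17.9 in WT and 55.3, 19.4, 19.5 and 24.3 in Rnls mut, with overlap and a log2 difference of -1.04 ± 0.49. Among lymphocytes Pdcd1lg2 also did not overlap in Tregs at day 17 (mean 0.565 times WT, 3 grafts each). In ILC-1, with 2 grafts each, Pdcd1lg2 was 0.543 times WT at day 10 and 1.68 times at day 17, without overlap. Cd274 in ILC-1 at day 10 was 0.296 times WT, also without overlap. How many of all genes separate in this way was not counted. The interaction had 31 member values, of which 0 were called and 4 were at an unadjusted p under 0.05 (edgeR), with a lowest adjusted p of 0.432. It called 0.0322% of all genes in macrophages, 0 in monocytes and 0.0351% in DCs. In DCs Pdcd1lg2 was also higher in Rnls mut grafts at day 10, 232 ± 43.9 (SD, n = 4) against 162 ± 41.6 (SD, n = 4) (exact permutation p = 0.0571), and the adjusted p was 0.914.

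Genes of the pathways around the members were followed as lists, whose counts stand against 50.9% of all genes called in either direction in macrophages, 27.1% in DCs and 14.4% in monocytes. Most interferon gamma induced genes fell between days in macrophages and DCs, as Cd274 did. Of this list 13 of 15 tested fell and 1 rose in macrophages (median log2 difference -0.73, all genes 0.02), 12 of 15 fell in DCs (median -1.32) and 6 of 15 in monocytes (median -0.50, all genes -0.06). In macrophages the T cell attracting chemokines Cxcl9 (-2.27) and Cxcl10 (-2.51), the guanylate-binding protein Gbp5 (-1.41) and the immunoproteasome subunit Psmb8 (-1.05) were the 4 with the smallest p. In DCs they were Gbp4 (-2.40), Igtp (-1.74), Cxcl9 (-2.34) and Cxcl10 (-2.95), and in monocytes Psmb8 (-0.85), Gbp7 (-0.94), Cxcl9 (-1.44) and Psmb9 (-0.61). Of the regulators of PD-L1, 6 fell and 4 rose among 17 in macrophages (median 0.01), near the share of all genes, 5 fell and 1 rose among 16 in DCs (-0.08), and 2 fell and 4 rose among 16 in monocytes (0.07). Ifngr1, a chain of the interferon gamma receptor, rose in macrophages (0.74), DCs (1.08) and monocytes (1.14). Socs1, a feedback inhibitor of that signal, fell in macrophages (-1.96), and Irf1, a transcription factor of the PD-L1 promoter, fell in DCs (-0.97). These lists were chosen with earlier results of these data known, and the members share the samples of the lists, so a joint fall is not independent support for either.

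Genes of the other routes were divided, with several counts at or below the share of all genes called. Of the list of CD40 signaling and NF-kB, 3 fell and 1 rose among 12 in macrophages (median -0.14), 4 fell among 11 in DCs (-0.43) and 2 rose among 12 in monocytes (0.14). The adaptor Traf1 fell in macrophages (-1.33) and DCs (-0.69), Relb and Nfkb2, the subunits of the alternative NF-kB pathway, fell in DCs (-0.73 and -0.69), and Birc3 rose in macrophages (0.87) and monocytes (0.98). Dendritic cell maturation genes fell in 5 of 10 in DCs (median -1.11), where Ccl17 (-2.81), Socs2 (-2.06), Ccl22 (-1.41) and the lymph node homing receptor Ccr7 (-1.18) led, and in 5 of 8 in macrophages with 1 that rose (median -1.09). In monocytes 0 of 5 passed (edgeR, median -0.16). Ccl22 and Ccr7 are also leading genes of DC cluster 21, whose share of DCs was lower at day 17. The part of that cluster in the fall of this list in DCs was not tested. A further list held other B7 family and coinhibitory molecules, both ligands and receptors. Of these, 3 fell and 2 rose among 8 in macrophages (median -0.04), 2 fell and 3 rose among 7 in DCs (0.33), and 1 fell and 2 rose among 7 in monocytes (0.16). Vsir, the coinhibitory molecule VISTA, rose in macrophages (0.68) and DCs (1.45), Havcr2 (TIM-3) fell in macrophages (-1.62) and rose in DCs (1.04), and Cd200, whose receptor restrains myeloid cells, fell in DCs (-1.50). Of the TNF superfamily and adhesion costimulators, 2 rose and 2 fell among 6 in macrophages (median 0.18), and 2 rose among 4 in DCs (0.06) and among 4 in monocytes (0.54). Cd48 and Cd83 were those that rose, in all 3 types.

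On the T cell side, 4 of the 5 receptors of the members rose between days in CD4 T cells (median 0.40) and 3 of 5 in CD8 T cells (0.44), where 36.6% and 21.4% of all genes were called in either direction, while 0 of 4 passed in Tregs (edgeR, median 0.08) and 1 of 2 fell in NK cells. Ctla4, which competes with Cd28 for CD80 and CD86, rose by 1.15 on the log2 scale in CD4 and by 1.15 in CD8 T cells. Cd28 rose by 0.59 and 0.44, and Cd40lg, the ligand of CD40, by 0.40 and 1.36. Icos rose in CD4 T cells (0.32) and fell in NK cells (-1.03). Pdcd1, the receptor of the PD-1 ligands, was not called in any of these types. Between genotypes 0 genes of any of these lists were called in any type at either day by edgeR.

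The genes whose pattern over cell types was most like that of each member were named as a description, from Pearson's r over 39 means of log2(CPM + 10), 1 for each type and group, in 10 types. The means share libraries and grafts. For Cd274 they were Trim30a (r = 0.959), Irf1 (0.956) and Gbp2 (0.939) of 10336 genes, for Cd40 H2-DMb2 (0.957), H2-DMb1 (0.952) and Zfp516 (0.950), and for Cd86 Ctsh (0.953), Dapk1 (0.948) and Tns3 (0.948). Cd80 was like Ebi3 (0.886) and Alcam (0.856), and Icosl most like Mapk13 (0.889), Cd24a (0.840) and Actn1 (0.840). Pdcd1lg2 had no close match, with Hspa2 at 0.708, Mir155hg at 0.698 and Med11 at 0.668. Between members, r was 0.926 for Cd86 and Cd40, 0.756 for Cd274 and Cd80 and -0.17 for Cd274 and Pdcd1lg2.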

How the data were processed

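The authors sequenced living CD45+ cells of the grafts with the 10x Genomics 3' v3.1 kit, in super-loaded droplets, and mm10 and Cell Ranger are named in the submitters' processing notes, without a version. The deposited table holds raw UMI counts of 32285 genes in 22441 cells, each with at least 1001 UMIs, beside the authors' graft (library and hashtag), cluster and cell type of each cell, which were used as deposited. How the authors removed doublets is not given in the sources used here. Scrublet (scanpy 1.11.5) called 1 cell at its own threshold and was therefore not used at that threshold. An alternative leaves out the 1345 cells (5.99%) with the highest scores per library, 11.5% of DCs among them.

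Counts were summed per graft and cell type where a graft had at least 10 cells, and a type was fitted where each group had at least 2 such grafts. Per group, 4 grafts were used, but 3 in monocytes of WT day 17, 3 in Tregs of each genotype at day 17 and 2 in each ILC-1 group. Each graft is 1 sample. The genotypes were on opposite flanks of the same mice, and which grafts shared a mouse is not given. Sums were tested with edgeR 4.0.16 (R 4.3.3) by its quasi-likelihood test, with TMM factors, filterByExpr and the 4 genotype and day groups in 1 fit per type, and adjusted by Benjamini-Hochberg over all genes tested in a type, with a threshold of 0.05. Differences are day 17 minus day 10, or Rnls mut minus WT, on the log2 scale, and their SE was taken from the F statistic. Single genes were also compared in counts per 1000000 UMIs (CPM) by exact two-sided permutation tests of the day within genotype, or of the genotype within a day. P-values measure the spread between grafts, and grafts of a group share 1 library. For shares of cells, each cell was thinned to 1000 UMIs. The scripts were tested on simulated counts with 200 changed genes per type. For a simulated log2 change of 1.5 between genotypes at day 10, 24.9% of changed genes were recovered in ILC-1. In the other types 86.2% to 97.9% were recovered.

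The 6 members were named in every type. Of each of the 9 lists with 88 genes, at most 4 genes past the threshold with the smallest p were named. Of genes with a mean of at least 20 CPM in a type, the 3 with the highest r were named per member. Of the genes that these rules pick, 1 is left out here. The members and lists were chosen with earlier results of these data known. Alternatives were no filter on low counts, at least 20 cells, the hashtag number as a block, cells without high doublet scores, DESeq2 1.42.0, no thinning and leaving out each graft. Scaling by total UMIs and DCs without cluster 21 were added after seeing the data. Hashtag libraries were not analysed here. Gene positions are of GENCODE M21 and promoters of RefSeq, both GRCm38, with promoters found for 4 of the 6 members.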

Additional observations from a re-analysis of the deposited data

Results flagged for a closer look

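Of 56 groups of 4 grafts, 3 had 1 graft far from the others by Dixon's test at the 95% level, and chance flags about 1 in 20 such groups. Cd80 in monocytes was at 106.7 CPM in Rnls mut graft 2 of day 10, against 79.7 to 83.8 in the other grafts of that group. Pdcd1lg2 in monocytes was at 55.3 in Rnls mut graft 1 of day 17, against 19.4 to 24.3 in the others. Icosl in DCs was at 20.6 in WT graft 2 of day 10, against 27.9 to 28.6 in the others. Of 31 tests of whether the genotype difference changed between days (edgeR), 0 were called, 4 had an unadjusted p under 0.05 and the lowest adjusted p was 0.432.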

How the results depend on the processing

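The 13 member differences between days that edgeR called were given 285 alternative values, of which 0 changed direction and 44 missed the threshold. The 4 calls in macrophages, those of Pdcd1lg2, Cd40 and Cd274 in DCs and that of Pdcd1lg2 in monocytes were past the threshold in every alternative run except Cd274 in DCs without cluster 21. Of the 18 not called, 14 of 370 values passed and 7 changed sign, all in ILC-1. There Cd274 was -0.19 without Rnls mut graft 2 of day 17 and at most 0.94 without another graft, and Pdcd1lg2 was 0.041 without the filter on low counts, 0.10 with the hashtag number as a replicate block, 0.15 scaled by total UMIs (added after seeing the data), 0.07 without WT graft 1 of day 10, 0.13 without WT graft 2 of day 17 and 0.36 without Rnls mut graft 3 of day 10, and was -0.41 at the lowest without another graft.

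Members called between days numbered 1 in monocytes with at least 20 cells, with DESeq2 and with total UMIs. In CD4 T cells they numbered 2 without the filter, 0 without high doublet scores and 0 with total UMIs, and in CD8 T cells 3 without the filter, 0 with DESeq2 and 0 with total UMIs. In Tregs they numbered 0 with the replicate block, DESeq2 and total UMIs, and in NK cells 1 without the filter and 1 with the replicate block. With at least 20 cells, Cd80 in DCs also missed the threshold. Leaving out 1 graft gave 1 to 2 in monocytes, 0 to 2 in CD4 T cells, 0 to 3 in CD8 T cells, 0 to 1 in NK cells and 0 to 1 in Tregs, and 3 to 4 in DCs and 4 to 5 in macrophages. With total UMIs the calls of all genes in macrophages were 3357 higher and 1626 lower, against 2389 and 2363 with TMM, in monocytes 813 and 338 against 511 and 656, in CD4 T cells 2114 and 869 against 1480 and 1394, and in CD8 T cells 1005 and 398 against 678 and 687.

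Of all genes, the day called 232 in Tregs with DESeq2 (main 366), and in ILC-1 93 with the replicate block and 176 with DESeq2 (main 275). Without 1 graft these were 101 (Rnls mut graft 2 of day 17) to 325 in ILC-1, where WT graft 1 of day 10 gave 110, and 446 (WT graft 1 of day 17) to 1967 (WT graft 3 of day 17) in monocytes, against 1167. The genotype at day 10 called 3 genes in macrophages, 0 in monocytes and 1 in DCs. These became 12, 19 and 37 without the filter, 16, 3 and 4 with DESeq2, 1 in macrophages with the replicate block, 2 in DCs with at least 20 cells or without high doublet scores, and 1 to 4, 0 to 1 and 0 to 2 without 1 graft. At day 17 the counts of 0, 0 and 1 became 6 in macrophages and 3 in DCs with DESeq2, 20 in monocytes and 40 in DCs without the filter, 2 in DCs without high doublet scores, and 0 to 3 in monocytes and 1 to 2 in DCs without 1 graft. The interaction called 3, 0 and 2, which became 9, 9 and 39 without the filter, 43, 7 and 12 with DESeq2, 5 in macrophages with the replicate block, 1 in DCs with at least 20 cells or without high doublet scores, and 1 to 9 in macrophages and 0 to 4 in DCs without 1 graft. No alternative called a member between genotypes. The cause of these changes was not tested.

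Shares of cells with a UMI at days 10 and 17 without thinning were 85.8% and 53.5% for Cd274 in macrophages, 84.9% and 69.2% in monocytes and 77.8% and 55.0% in DCs, 48.5% and 25.0% for Pdcd1lg2 in DCs, and 55.4% and 30.8% for Cd40 in DCs. Grafts with the same hashtag number in the 2 genotypes had correlations of -0.31 to 0.44 between their deviations, not all above 0.1. So few grafts per group cannot decide whether equal numbers mark the same mouse, and the numbers were not used as pairs in the main fits. The hashtag number as a block changed no other call of a member. A minimum of 20 cells left too few grafts of Tregs and ILC-1 to be fitted. Depth limits Icosl above all, with at most 50 UMIs in monocytes, and the 2 libraries of a day limit every comparison.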

Other observations

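In lymphocytes the same lists gave other counts between days (edgeR, adjusted p under 0.05), where 36.6% of all genes were called in CD4 T cells, 21.4% in CD8 T cells, 15.7% in Tregs, 12.9% in NK cells and 15.5% in ILC-1. Of the interferon gamma induced genes, 5 fell and 1 rose among 14 in CD4 T cells, 4 fell and 1 rose among 12 in CD8 T cells, 2 of 11 fell in Tregs, 2 of 10 fell in NK cells and 0 of 5 passed in ILC-1. Of the regulators of PD-L1, 6 rose and 1 fell among 16 in CD4 T cells, 1 rose and 4 fell among 15 in CD8 T cells, 3 of 12 rose in Tregs, 1 of 14 fell in NK cells and 0 of 12 passed in ILC-1. Of the CD40 signaling and NF-kB list, 5 rose and 1 fell among 12 in CD4 T cells, 3 rose and 1 fell among 12 in CD8 T cells, 3 of 8 rose in Tregs, 2 of 10 rose in NK cells and 3 of 9 rose in ILC-1. The test of whether the genotype difference changed between days called 1 gene of the lists in any of the 8 types, Socs1, a suppressor of cytokine signaling, in Tregs (chosen after its values were seen).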
